A study of Homo sapiens with 2 samples.

Results

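The ERBB receptors and the ligands of EGFR were examined in the established human glioblastoma line U87. The 10 genes comprise the receptors EGFR, ERBB2, ERBB3 and ERBB4 and the ligands EGF, TGFA, HBEGF, AREG, EREG and BTC. They were chosen by a rule on their place in the pathway that uses no measured value, with earlier results of these data known, and all 10 were found among the 41582 genes of the table. Labels describe the cells as wild type (WT), and culture was in RPMI with fetal bovine serum. One group received DMSO, the vehicle, and the other received CCA-1.1, a curcumin analog, each for 72 h. The concentration of CCA-1.1 used for sequencing is not given in the sources used here. There was 1 library per group, so no difference has a replicate check, no standard error and no p-value. Values are TPM, a unit that relates the reads of a transcript to its length and to the library total and keeps no read depth. Gene values are sums over transcripts. Differences are CCA-1.1 minus DMSO on the log2(TPM + 1) scale, where changes at low TPM look smaller than they are. In these bulk samples, fewer cells with a transcript and less transcript per cell cannot be told apart.

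EGFR and its relatives are receptor tyrosine kinases at the cell surface. A ligand bound outside the cell leads to pairing of receptors and phosphorylation of their tails inside it, which signals to the RAS-ERK and PI3K-AKT pathways. EGF, TGF-alpha and amphiregulin bind EGFR, while HB-EGF, epiregulin and betacellulin bind both EGFR and ERBB4. ERBB2 has no known ligand of its own and acts as a preferred partner, and ERBB3, which has little kinase activity, is a receptor for neuregulins. Most EGFR ligands are made as membrane proteins and are released by proteases of the ADAM family. Amplification and mutation of EGFR are common in glioblastoma.

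EREG was by far the most abundant of the ligands, and it was the member that differed most between the libraries. EREG, which encodes epiregulin, was at 113.9 TPM with DMSO and 71.8 TPM with CCA-1.1, a ratio of 0.630 and a log2 difference of -0.66. The other members were at 24.3 TPM or below in both libraries. None of the 10 members differed by more than 2-fold, a size passed by 1.53% of all genes. EREG was the only one past the smaller limit of 0.5 on the log2 scale, against 4.74% of all genes in either direction and 1.93% in the lower direction. The median difference of the 10 members was -0.0417, and that of all genes, of which 30.2% were lower and 41% higher, was 0. For the 6 members averaging at least 1 TPM the median was -0.052, against 0.0168 for the protein-coding genes at that level.

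The EREG and AREG genes lie side by side on chromosome 4 of GRCh38.p14, between EPGN, which encodes the EGFR ligand epigen, and BTC. EREG spans 74365145 to 74388749 and AREG spans 74445136 to 74455005, so 56.4 kb separate them. Their promoters are shown with those of EPGN and BTC because these neighbours were at very different levels, and with that of HBEGF on chromosome 5, the EGFR ligand at the next highest level. Each window runs from 250 bases before to 50 bases after the annotated start in RefSeq (GRCh38.p14). The windows are chr4:74364895-74365194 for EREG, chr4:74444886-74445185 for AREG and chr4:74308220-74308519 for EPGN, all on the plus strand, and chr4:74794474-74794773 for BTC and chr5:140346554-140346853 for HBEGF, both on the minus strand. Capitals mark a TATA box (TATAAA), a cAMP response element (CRE, TGACGTCA), an AP-1 motif (TGANTCA), a GC box (GGGCGG), a TEAD motif (GGAATG) or a CCAAT box (CCAAT), each searched on both strands.
EREG: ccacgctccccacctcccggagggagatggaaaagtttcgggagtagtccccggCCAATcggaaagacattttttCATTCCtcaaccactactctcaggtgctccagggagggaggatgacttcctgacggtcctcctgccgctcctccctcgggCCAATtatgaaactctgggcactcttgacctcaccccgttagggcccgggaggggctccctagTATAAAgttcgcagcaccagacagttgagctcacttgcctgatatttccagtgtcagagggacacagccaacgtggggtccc
AREG: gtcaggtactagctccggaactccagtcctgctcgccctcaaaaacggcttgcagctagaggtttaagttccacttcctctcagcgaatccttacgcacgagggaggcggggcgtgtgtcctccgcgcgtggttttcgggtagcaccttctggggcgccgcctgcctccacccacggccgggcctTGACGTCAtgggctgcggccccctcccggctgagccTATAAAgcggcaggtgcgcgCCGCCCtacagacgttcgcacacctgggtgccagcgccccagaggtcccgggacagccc
EPGN: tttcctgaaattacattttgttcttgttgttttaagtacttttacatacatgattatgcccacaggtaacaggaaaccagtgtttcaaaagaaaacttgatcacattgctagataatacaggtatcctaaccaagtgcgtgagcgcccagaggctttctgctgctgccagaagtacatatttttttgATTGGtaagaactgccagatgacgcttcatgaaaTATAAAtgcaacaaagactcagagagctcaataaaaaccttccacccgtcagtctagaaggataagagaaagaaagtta
BTC: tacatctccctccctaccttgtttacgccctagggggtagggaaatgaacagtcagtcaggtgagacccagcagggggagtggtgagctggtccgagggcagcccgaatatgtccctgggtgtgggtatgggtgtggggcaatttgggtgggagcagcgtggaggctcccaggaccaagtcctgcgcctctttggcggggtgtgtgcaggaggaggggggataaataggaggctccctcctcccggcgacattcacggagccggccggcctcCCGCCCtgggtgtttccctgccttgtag
HBEGF: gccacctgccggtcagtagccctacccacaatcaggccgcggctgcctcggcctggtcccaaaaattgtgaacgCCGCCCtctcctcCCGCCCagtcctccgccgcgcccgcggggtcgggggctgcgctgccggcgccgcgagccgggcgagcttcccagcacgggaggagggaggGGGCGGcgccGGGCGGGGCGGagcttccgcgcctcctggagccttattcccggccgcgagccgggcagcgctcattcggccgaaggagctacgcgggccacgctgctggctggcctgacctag

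A TATAAA match stood in the windows of EREG, AREG and EPGN, with its leftmost base at -32, -29 and -29 relative to the annotated start. Over all 35116 promoter windows of this length, 11.5% held this motif. No such match was found in the windows of BTC and HBEGF. The full CRE was found in the AREG window alone among these 5, at -65, and in 1.85% of all windows. Its core TGACG, which overlaps the CRE and is not capitalised by itself, was found in the windows of EREG, AREG and EPGN and in 24.6% of all. The EREG window also held 2 CCAAT boxes and 1 TEAD motif, which were found in 34.6% and 14.03% of all windows. The EPGN window held 1 CCAAT box as well. The HBEGF window held 5 GC boxes, counted with overlaps, and the windows of AREG and BTC held 1 each, against 45.0% of all windows with at least 1. None of the 5 held the AP-1 motif, which 7.71% of all windows held. GC content ran from 37.7% for EPGN and 57.7% for EREG to 63.0% for BTC, 66.3% for AREG and 75.0% for HBEGF, and the median of all windows was 58.7%. A match is a description of the sequence and not a site of binding.

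Among the receptors, EGFR was at 24.3 TPM with DMSO and 22.2 TPM with CCA-1.1, a difference of -0.13. ERBB2, the partner without a ligand, was at 1.90 TPM with DMSO and 2.01 TPM with CCA-1.1, a difference of 0.05. ERBB3 was at 0.76 TPM with DMSO and 0.51 TPM with CCA-1.1, a difference of -0.22, which was -0.57 with a pseudocount of 0.01 TPM and -0.52 with curated transcripts only. These values put EGFR well above its partners in both libraries. ERBB4, the other receptor for HB-EGF and epiregulin, was at 0.15 TPM with DMSO and 0.12 TPM with CCA-1.1, a level at which the table's step of 0.01 TPM and the unknown read depth leave little precision. EGFR held 89.6% of the summed TPM of the 4 receptors with DMSO and 89.4% with CCA-1.1. ERBB2 held 7.003% with DMSO and 8.10% with CCA-1.1, and ERBB3 held 2.80% with DMSO and 2.05% with CCA-1.1, or 0.623% with CCA-1.1 when curated transcripts alone were counted. EGFR was 8.65 times as high as its 3 partners together with DMSO and 8.41 times with CCA-1.1.

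Among the ligands, HBEGF, which encodes heparin-binding EGF-like growth factor, was at 14.5 TPM with DMSO and 14.1 TPM with CCA-1.1, a difference of -0.05. TGFA, the gene of transforming growth factor alpha, was at 10.3 TPM with DMSO and 9.83 TPM with CCA-1.1, a difference of -0.06. EGF was at 1.20 TPM with DMSO and 1.70 TPM with CCA-1.1, a difference of 0.30, which was 0.50 with a pseudocount of 0.01 TPM. Thus HBEGF and TGFA were at nearly the same level in both libraries and EGF was low in both. BTC, the betacellulin gene, was at 0.69 TPM with DMSO and 0.80 TPM with CCA-1.1, a difference of 0.09. AREG, which encodes amphiregulin, was listed at 0 in both libraries, so no fold change is given for it. A set of 20 widely used genes, chosen after the values were seen, held none at 0, with a lowest value of 23.8 TPM. Such a set cannot tell whether the 0 of AREG is absence or a failed estimate, which would need the reads.

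**Figure D1:**
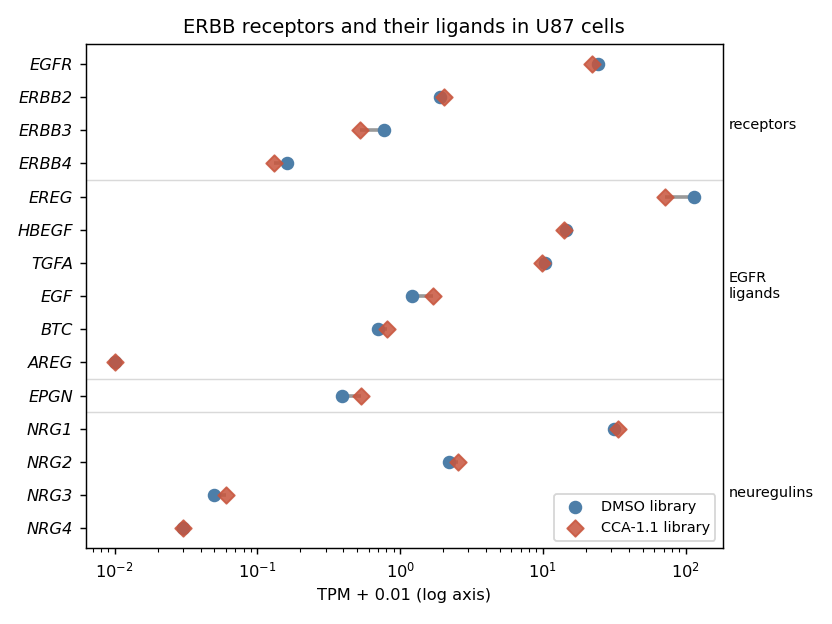
Level of each receptor, EGFR ligand and neuregulin in the DMSO library (circles) and the CCA-1.1 library (diamonds), plotted as TPM + 0.01 on a log axis, 1 library per group. EREG stands highest, at 113.9 TPM with DMSO and 71.8 TPM with CCA-1.1, and AREG is listed at 0 in both.

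The order of the members by level was nearly the same in both libraries. From the highest down it was EREG, EGFR, HBEGF, TGFA, ERBB2 and EGF in each. BTC and ERBB3 changed places, with ERBB3 7th with DMSO and 8th with CCA-1.1, and ERBB4 and AREG came last. Without replicates no spread can be given for neighbours in this order, and BTC and ERBB3 both lay between 0.51 and 0.80 TPM. Among 19938 protein-coding genes, 1328 were above EREG with DMSO and 2099 with CCA-1.1. For EGFR these numbers were 5157 and 5513.

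The summed TPM of the 6 ligands was 140.6 with DMSO and 98.2 with CCA-1.1, a ratio of 0.698. EREG held 81.0% of this sum with DMSO and 73.1% with CCA-1.1. The 5 other ligands together were at 26.7 TPM with DMSO and 26.4 TPM with CCA-1.1, a log2 difference of -0.02. So the lower sum was carried by EREG, which was 42.1 TPM lower out of 42.4 TPM for all 6. The share of HBEGF was 10.3% with DMSO and 14.3% with CCA-1.1, and that of TGFA was 7.31% and 10.0%. Grouped by receptor, the ligands of both EGFR and ERBB4 (HBEGF, EREG and BTC) summed to 129.1 TPM with DMSO and 86.7 TPM with CCA-1.1. The ligands of EGFR alone (EGF, TGFA and AREG) summed to 11.5 TPM in each library. EREG was 4.68 times as high as EGFR with DMSO and 3.24 times with CCA-1.1.

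**Figure D2:**
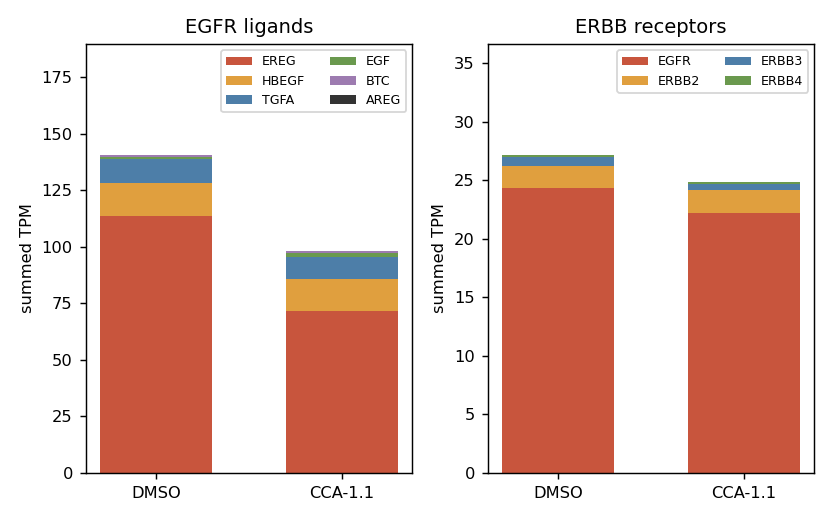
Summed TPM of the 6 EGFR ligands (left) and the 4 ERBB receptors (right) in each library, with each bar divided by gene and 1 library per bar. The ligand bar is 140.6 TPM high with DMSO and 98.2 TPM with CCA-1.1, and its EREG part is 113.9 TPM and 71.8 TPM.

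The difference of EREG, the member that differed most, was large beside those of genes at 10 TPM or more, a group without an upper limit. Among the 7906 protein-coding genes averaging at least 10 TPM, the 5th and 95th percentiles of the difference were -0.29 and 0.31. A difference as low as that of EREG or lower was found in 32 of these, EREG included, and 0.683% of them had a difference of larger size in either direction. EREG was 1 of 4 members at this level. Of all genes at this level, 0.987% were lower by more than 0.5, 1.88% were past 0.5 in either direction and 0.215% were past 2-fold. EGFR, TGFA and HBEGF, the other 3, were within the percentiles, and 42.1%, 69.8% and 76.1% of the genes had a larger difference in size. At 1 to 10 TPM the percentiles were -0.37 and 0.44 among 4135 genes, and EGF and ERBB2 were within them. At 0.1 to 1 TPM they were -0.31 and 0.36 among 2823 genes, and ERBB3, ERBB4 and BTC were within them. These percentiles describe the spread over genes in 2 libraries and are not a replicate error.

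By single transcripts, the table listed 72 transcripts of the 10 members. Of these, 42 were at 0 in both libraries, 12 were above 0 in 1 library alone and 8 had a mean of at least 1 TPM. The estimates of transcripts of 1 gene depend on each other, since reads that match several of them are divided among them. EREG, HBEGF and AREG have 1 transcript each, so their values do not rest on such a division within the gene. TGFA transcript NM_003236.4 was at 4.39 TPM with DMSO and 5.62 TPM with CCA-1.1, while TGFA transcript NM_001099691.3 was at 5.24 TPM with DMSO and 4.21 TPM with CCA-1.1. The order of these TGFA transcripts was therefore opposite in the 2 libraries, although the gene was at 10.3 TPM and 9.83 TPM. A further TGFA transcript, NM_001308158.2, was at 0.65 TPM with DMSO and listed at 0 with CCA-1.1.

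EGF was carried by NM_001178131.3, which was at 1.20 TPM with DMSO and 1.53 TPM with CCA-1.1. With CCA-1.1, NM_001357021.2 of EGF added 0.17 TPM. Of the 32 transcripts of ERBB2, 24 were at 0 in both libraries, and NM_001382782.1 was highest at 1.0 TPM with DMSO and 0.98 TPM with CCA-1.1. In ERBB3, NM_001005915.1 was at 0.41 TPM with DMSO and 0.15 TPM with CCA-1.1, and the predicted transcript XM_047428500.1 was at 0.11 TPM with DMSO and 0.36 TPM with CCA-1.1. ERBB4 was above 0 in 1 of 9 transcripts, NM_001042599.1. With versioned identifiers only, the difference of ERBB4 was 0, so its level rests on matching that ignores versions. On the log2(TPM + 1) scale, 1 of the 72 transcripts passed 2-fold, EGFR transcript variant 8 (NM_001346900.2) at 0.01 TPM with DMSO and 4.86 TPM with CCA-1.1, and 2.23% of all transcripts of the table passed it. Variants 1 (NM_005228.5) and 3 (NM_201283.2) of EGFR, the others with a mean of at least 1 TPM, had differences of -0.40 and -0.47. None of the 61 transcripts of ligands and partner receptors passed 2-fold on this scale. With a pseudocount of 0.1 TPM, 11 of the 72 did, or 15.3%, against 15.6% of all transcripts. They include 9 transcripts of ligands and partner receptors, among them NM_001308158.2 of TGFA and NM_001005915.1, NM_001982.4 and XM_047428500.1 of ERBB3. The others were variant 8 and EGFRvIII (NM_001346941.2) of EGFR, the latter at 0.42 TPM with DMSO and listed at 0 with CCA-1.1. All of the 11 except variant 8 were below 1 TPM in both libraries.

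The genes around EREG were examined after its value was seen, so EREG itself is no independent part of the counts below. Within 1000 kb of the EREG start, 19 protein-coding genes start, EREG included, and 13 of them had a mean under 1 TPM. Of the 6 others, EREG included, 5 were lower in the CCA-1.1 library, against 46% of the protein-coding genes averaging at least 1 TPM. Beside EREG these include the chemokine genes CXCL8, at 73.2 TPM with DMSO and 29.6 TPM with CCA-1.1 (-1.28), CXCL2, at 47.6 TPM and 32.7 TPM (-0.53), and CXCL3, at 9.61 TPM and 7.14 TPM (-0.38). PARM1 was also lower, with a difference of -0.15, and MTHFD2L was higher, with a difference of 0.15. MTHFD2L lies between these chemokine genes and EREG. The nearest neighbours of EREG were low. EPGN was at 0.38 TPM with DMSO and 0.52 TPM with CCA-1.1, AREG was listed at 0, and BTC was under 1 TPM. Thus epiregulin was the only EGFR ligand of the stretch from EPGN to BTC above 1 TPM in either library. CXCL2 and CXCL3 are close paralogs of CXCL1, which was listed at 0, and reads shared by such genes are divided by estimation, so their values are uncertain. No test of neighbouring genes was made.

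Neuregulins, the ligands of ERBB3 and ERBB4, were described beside the low level of these receptors. NRG1 was at 31.3 TPM with DMSO and 33.5 TPM with CCA-1.1, a difference of 0.10. NRG2 was at 2.18 TPM with DMSO and 2.54 TPM with CCA-1.1, a difference of 0.15. NRG1 was thus the second ligand gene of the family after EREG by level. NRG3 and NRG4 were at 0.05 TPM or below in both libraries. NRG1 was 34.4 times as high as ERBB3 and ERBB4 together with DMSO and 53.2 times with CCA-1.1, with ERBB3 and ERBB4 summing to under 1 TPM in each. Over curated transcripts only, a setting chosen after seeing the data, these ratios were 38.4 and 119.4, since the predicted ERBB3 transcript XM_047428500.1 then left the sum.

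Genes that act with the receptors and their ligands were grouped in 6 further lists, and 88 of their genes averaged at least 1 TPM. None of the 88 passed 2-fold, against 0.341% of the protein-coding genes averaging at least 1 TPM. Past 0.5 on the log2 scale there was 1 gene higher and 1 lower, or 2.27%, against 3.13% of these protein-coding genes. The median difference of the 88 genes was -0.03, and that of the protein-coding genes was 0.0168. The share past 0.5 in the lists was not above that background.

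The sheddases release ligands from the membrane, and the iRhoms and FRMD8 act with the sheddase ADAM17. Of these 10 genes, 9 averaged at least 1 TPM and none passed 0.5. ADAM17, the main sheddase of HB-EGF, TGF-alpha, amphiregulin and epiregulin, was at 36.0 TPM with DMSO and 38.1 TPM with CCA-1.1. ADAM10, which releases EGF and betacellulin, was at 58.6 TPM and 49.1 TPM, a difference of -0.25. ADAM15 had the lowest difference of the list, -0.31, at 82.2 TPM with DMSO and 66.2 TPM with CCA-1.1. The highest were 0.16 for RHBDF2, which carries ADAM17 to the cell surface, and 0.15 for ADAM8. The median of the 9 genes was -0.10.

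The co-receptors and binding partners of ligands had 7 of 8 genes lower in the CCA-1.1 library, with a median of -0.19. Of the protein-coding genes averaging at least 1 TPM, 46% were lower, and of those averaging at least 10 TPM, 48.8% were. SDC4, a heparan sulfate proteoglycan of the syndecan family, was at 23.9 TPM with DMSO and 16.2 TPM with CCA-1.1, a difference of -0.54. CD44, the hyaluronan receptor, was at 607.4 TPM with DMSO and 472.6 TPM with CCA-1.1, a difference of -0.36. These were the lowest of the list, and SDC4 alone was past 0.5. CD9, a tetraspanin that binds the precursor of HB-EGF, was at 296.7 TPM and 284.5 TPM, a difference of -0.06. GPC1, the glypican 1 gene, was higher, at 69.4 TPM with DMSO and 79.6 TPM with CCA-1.1, a difference of 0.20.

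Among the listed regulators of the receptors, mostly negative ones, 19 of 21 genes averaged at least 1 TPM, none passed 0.5, and the median was -0.0084. The list also holds the deubiquitinases USP8 and USP2, so its genes do not all act in the same direction. ERRFI1, which encodes MIG6, an inhibitor of the EGFR kinase, was at 150.7 TPM with DMSO and 110.6 TPM with CCA-1.1, a difference of -0.44. SH3KBP1, an adaptor of the ubiquitin ligase CBL, had a difference of -0.21. LRIG3 was higher, at 4.07 TPM with DMSO and 5.47 TPM with CCA-1.1, a difference of 0.35, and SOCS4 had a difference of 0.15. Of the 18 adaptors, exchange factors and signalling enzymes with a mean of at least 1 TPM, none passed 0.5 and the median was -0.03. CRKL and GRB2, which link receptors to guanine nucleotide exchange factors, had the lowest differences of these, -0.24 and -0.22, and GAB2 and PLCG1 had the highest, 0.21 and 0.18. With curated transcripts only, GAB2 was past 0.5. In endocytosis and sorting, 17 genes had a median of -0.01 and none passed 0.5. STAM2, a part of the sorting machinery on endosomes, was highest at 17.2 TPM with DMSO and 23.0 TPM with CCA-1.1, a difference of 0.40, followed by HGS with 0.08. The clathrin heavy chain gene CLTC was lowest with -0.14, then EPN1 with -0.13.

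Genes that respond to ERK signalling showed no common direction. Of 17 with a mean of at least 1 TPM, 9 were higher and 8 were lower with CCA-1.1, and the median was 0.0047. MYC was past 0.5, at 21.1 TPM with DMSO and 31.6 TPM with CCA-1.1, a difference of 0.57. SPRY2, a feedback inhibitor, was next with 0.19. The lowest were CCND1, the cyclin D1 gene, and ETV5, each with -0.19. DUSP6, a phosphatase of ERK, was at 17.5 TPM with DMSO and 17.6 TPM with CCA-1.1.

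The labelled cell type was compared with its markers. Of 10 genes taken as markers of glioblastoma cells, 7 had a mean of at least 1 TPM, among them VIM, CHI3L1 and CD44, while S100B was listed at 0 and GFAP was at 0.41 TPM with DMSO and 0.57 TPM with CCA-1.1. PTPRC and CD3E of blood cells and EPCAM and CDH1 of epithelial cells were at 0.18 TPM or below in both libraries. The epithelial keratin genes KRT8 and KRT18 were higher, at 18.8 TPM and 3.60 TPM with DMSO and 21.4 TPM and 3.79 TPM with CCA-1.1. CD68 was at 494.2 TPM with DMSO and 397.1 TPM with CCA-1.1. All 4 fibroblast markers were above 1 TPM, and their sum was 302.0 TPM with DMSO and 258.0 TPM with CCA-1.1. The 3 endothelial markers summed to 3.93 TPM and 3.23 TPM, with CDH5 and VWF under 1 TPM. The sums for glioblastoma, blood, endothelial and fibroblast markers were lower with CCA-1.1, as EREG was, and that for epithelial markers was higher, at 22.7 TPM with DMSO and 25.4 TPM with CCA-1.1. By single genes, 6 of 10 glioblastoma, 2 of 3 blood, 2 of 3 endothelial, 3 of 4 fibroblast and 2 of 4 epithelial markers were lower. The glioblastoma sum was mostly CHI3L1 and VIM, and the blood sum was nearly all CD68. The largest difference was -0.74 for TNC, the tenascin C gene, while COL1A1 and OLIG2 were higher, with differences of 0.30 and 0.27. Their part in the value of EREG was not tested.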

How the data were processed

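mRNA of 1 DMSO and 1 CCA-1.1 library of U87 cells was sequenced. The submitters' processing notes name FastQC 0.11.9 and MultiQC 1.1, and the paper's methods name Kallisto and GRCh38.p14; the transcripts carry RefSeq identifiers. The deposited values are TPM to 2 decimals. TPM keeps no depth, so counting intervals and detection limits were not derived.

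Of 177816 transcripts, 169966 were matched to a gene symbol through RefSeq (GRCh38.p14), ignoring versions, and TPM was summed per gene. Differences used a pseudocount of 1 TPM, with limits of 2-fold and 0.5 on the log2 scale. With 1 library per group no test was run. The calculation was tested on simulated data with planted changes larger than 2-fold, in genes averaging at least 10 TPM. Smaller changes and lower levels were not simulated. The members and lists were chosen with earlier results of these data known. Named genes are all members, their transcripts with a mean of at least 1 TPM, EPGN, the neuregulins, and in each list genes past 2-fold or otherwise the 2 highest and 2 lowest differences, and others were named after their values were seen. Promoters were found for 9 of the 10 members, all except ERBB3. Alternatives were other pseudocounts, rescaling, transcript classes, identifier matching and a filter on low values. Python 3.11.15, numpy 2.4.6, pandas 2.3.3 and matplotlib 3.10.9 were used.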

Additional observations from a re-analysis of the deposited data

How the results depend on the processing

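No paired analysis was possible because each group held a single library, and no replicate was left out for the same reason. Of 297 values recomputed under alternatives, 265 moved by less than 0.1 on the log2 scale, by less than 1 percentage point of a share or by no more than 1.5 times a count, and none changed the sign of a difference past 0.5. EREG was among these under every alternative, and no member passed 2-fold under any.

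The other 32 values follow. With a pseudocount of 0.1 TPM, ERBB3 was at -0.50, ERBB4 at -0.18 and EGF at 0.47, and the transcripts of EGF (NM_001178131.3), EGFR variant 8 (NM_001346900.2) and EGFR variant 3 (NM_201283.2) were at 0.33, 5.49 and -0.79, while 2991 of all genes were past 2-fold and 7940 past 0.5, and 11 member transcripts, 9 of them of ligands and partner receptors, were past 2-fold. With 0.01 TPM, ERBB3 was at -0.57, ERBB4 at -0.30, EGF at 0.50 and BTC at 0.21, 2 members were past 0.5 (ERBB3 beside EREG), the receptors had a median of -0.22 with 1 past 0.5, and the neuregulins a median of 0.16. Without a pseudocount, ERBB3 was at -0.58, ERBB4 at -0.32, EGF at 0.50 and BTC at 0.21. A smaller pseudocount moves low values by construction. With curated transcripts only, ERBB3 was at -0.52, so that 2 members and 1 receptor were past 0.5, as was 1 adaptor (GAB2); EGFR held 90.8% of the receptor TPM with DMSO and 91.6% with CCA-1.1, and ERBB3 held 0.623% with CCA-1.1. In that setting, here chosen after seeing the data, NRG1 was 119.4 times as high as ERBB3 and ERBB4 together with CCA-1.1. The share of all genes past 0.5 was computed neither with curated transcripts only nor with 0.01 TPM, so member counts there have no background. Among the 7906 protein-coding genes averaging at least 10 TPM, 17 were past 2-fold and 149 past 0.5. These were 0.215% and 1.88% of them, against 1.53% and 4.74% of all genes, so the shares were lower as well as the counts. The missing read depth limits every value near 0, among them those of AREG, ERBB4 and ERBB3.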
